A study of Mus musculus with 10 samples.

Results

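The 8 genes described here are Foxp3, which encodes the transcription factor that defines regulatory T cells, and 7 genes whose products are used to recognise these cells: Lrrc32, Nrp1, Gpr83, Capg, Nt5e, Entpd1 and Izumo1r. They were chosen by name, with earlier results of these data known. Their members are the peaks of open chromatin that the deposited annotation assigns to them by nearest start site, which is 48 of 61581 peaks. Foxp3 has 3 of these peaks, Lrrc32 4, Nrp1 3, Gpr83 3, Capg 10, Nt5e 9, Entpd1 7 and Izumo1r 9. Assignment to the nearest gene is not evidence that a peak acts on that gene. Of the 48 peaks, 24 passed the filter on low counts and were tested 1 by 1, while all 8 genes could be tested on the sum of their peaks.

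Regulatory T cells are CD4 T cells that hold other immune cells in check, and FOXP3 is needed to make and keep them. Lrrc32 encodes GARP, which holds latent TGF-beta on the cell surface, and Nrp1 encodes neuropilin-1, a receptor for semaphorins and VEGF that is common on regulatory T cells made in the thymus. Entpd1 encodes CD39 and Nt5e encodes CD73, surface enzymes that act in turn to break extracellular ATP down to adenosine, which dampens T cell responses. Gpr83 encodes a G protein-coupled receptor, Izumo1r encodes folate receptor 4, and Capg encodes an actin-capping protein of the gelsolin family, which works inside the cell and not at its surface. Resting regulatory T cells mostly carry CD25, so a sort of CD25-negative cells removes most of them.

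The assay was ATAC-seq, in which the Tn5 transposase cuts and tags open DNA, run on naive T cells sorted as CD3+CD4+ cells that were CD25- and CD44low/- from spleen and lymph node. All mice carried the genotype Satb1fl/fl x CD4-CreERT2wt/+, that is floxed alleles of Satb1, a chromatin organiser of T cells, and a tamoxifen-inducible Cre driven by CD4. The KO group is 5 libraries (Sample_2268_KO to Sample_2272_KO) from mice given tamoxifen, and the WT group is 5 libraries (Sample_2273_WT to Sample_2277_WT) from untreated mice of the same genotype, so Satb1 deletion and tamoxifen exposure cannot be told apart. Each library was made from 60000 cells and read as single reads of 75 bp. The labels give no age, sex, litter or batch and do not say which libraries, if any, share an animal. The p-values here therefore reflect library-to-library spread, which may be technical.

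Overlap of a gene's start with a deposited peak shows which starts lie in open chromatin in these cells, which the letters alone do not show. The windows below run from 250 bases before a RefSeq start to 50 bases after it (RefSeq, GRCm38.p6, 5′ to 3′ on the strand of the gene, all plus), and capitals mark bases that lie inside a deposited peak. Both Foxp3 starts are shown because neither holds any capital, whereas the Gpr83 window has 249 of its 300 bases in a peak of Gpr83 and the Nt5e window all 300 in a peak of Nt5e. The window at the first Entpd1 start is shown because all 300 bases lie in a peak that the annotation assigns to the neighbour Tctn3.
Foxp3, first start, chrX:7579426-7579725: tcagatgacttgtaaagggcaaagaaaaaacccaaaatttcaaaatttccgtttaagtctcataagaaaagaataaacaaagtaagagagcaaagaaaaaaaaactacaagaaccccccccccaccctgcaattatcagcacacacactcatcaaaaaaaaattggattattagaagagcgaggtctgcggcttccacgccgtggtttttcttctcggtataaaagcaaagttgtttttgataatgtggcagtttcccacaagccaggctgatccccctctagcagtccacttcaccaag
Foxp3, second start, chrX:7580233-7580532: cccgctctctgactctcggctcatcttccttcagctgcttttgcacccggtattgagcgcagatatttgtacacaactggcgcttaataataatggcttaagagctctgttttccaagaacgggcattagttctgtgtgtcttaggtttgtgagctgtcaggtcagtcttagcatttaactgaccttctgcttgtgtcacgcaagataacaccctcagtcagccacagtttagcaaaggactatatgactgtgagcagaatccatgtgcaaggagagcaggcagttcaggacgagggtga
Gpr83, chr9:14859960-14860259: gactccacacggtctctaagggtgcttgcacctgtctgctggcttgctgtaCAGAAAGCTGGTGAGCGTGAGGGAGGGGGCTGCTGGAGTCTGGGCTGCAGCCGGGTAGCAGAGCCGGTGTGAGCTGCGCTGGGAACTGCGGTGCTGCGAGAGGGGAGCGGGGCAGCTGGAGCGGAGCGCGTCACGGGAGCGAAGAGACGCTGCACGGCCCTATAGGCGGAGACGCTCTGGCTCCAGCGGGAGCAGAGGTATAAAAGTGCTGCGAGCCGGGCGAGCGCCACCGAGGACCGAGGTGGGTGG
Nt5e, chr9:88327359-88327658: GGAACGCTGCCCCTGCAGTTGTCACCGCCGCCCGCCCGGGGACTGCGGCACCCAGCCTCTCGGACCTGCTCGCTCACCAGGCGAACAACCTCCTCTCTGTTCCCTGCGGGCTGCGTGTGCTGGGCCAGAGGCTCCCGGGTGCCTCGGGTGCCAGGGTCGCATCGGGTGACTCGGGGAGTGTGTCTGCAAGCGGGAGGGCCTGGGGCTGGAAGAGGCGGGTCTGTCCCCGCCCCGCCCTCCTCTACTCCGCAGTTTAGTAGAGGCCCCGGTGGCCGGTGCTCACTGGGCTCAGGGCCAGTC
Entpd1, first start, chr19:40612116-40612415: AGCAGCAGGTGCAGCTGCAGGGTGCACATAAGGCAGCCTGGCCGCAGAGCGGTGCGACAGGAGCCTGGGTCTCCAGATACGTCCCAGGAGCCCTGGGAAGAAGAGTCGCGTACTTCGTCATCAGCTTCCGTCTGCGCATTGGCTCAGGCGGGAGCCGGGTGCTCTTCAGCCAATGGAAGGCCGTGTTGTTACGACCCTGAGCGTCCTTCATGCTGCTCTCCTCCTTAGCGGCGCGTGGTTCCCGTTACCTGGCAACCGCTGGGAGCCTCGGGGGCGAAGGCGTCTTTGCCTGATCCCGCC
The 2 Foxp3 windows have 6 and 8 CpG dinucleotides and a GC content of 40.7% and 47.7%, and lie 85 and 892 bp from the nearest Foxp3 peak. The windows of Gpr83, Nt5e and Entpd1 have 24, 23 and 23 CpG dinucleotides and a GC content of 67.0%, 71.0% and 64.0%. Over all RefSeq windows of this length the medians are 7 CpG dinucleotides and 52.7% GC. RefSeq windows were matched for 7 of the 8 genes and not for Lrrc32, and those of Nrp1, Izumo1r and Capg lay 133, 69 and 1079 bp from the nearest peak of their gene. These 3 windows had 0 bases in any peak, with 14, 3 and 7 CpG dinucleotides and a GC content of 64.0%, 52.3% and 58.0%. The Nrp1 window, outside any peak, thus had the GC content of the first Entpd1 window. The window at the second Entpd1 start had 39 bases in an Entpd1 peak, 10 CpG dinucleotides and 48.7% GC.

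Short motifs were searched in these windows on both strands, as a description of letters and not of binding. The second Foxp3 window holds a STAT motif (TTCNNNGAA, matched as TTCCAAGAA at bases 112 to 120, counted from 1 at the 5′ end), which 8.30% of 32851 RefSeq windows hold, and an NFAT motif (GGAAAA, on the minus strand at bases 110 to 115) that overlaps it and that 23.4% hold. The first Foxp3 window and those of Gpr83, Nt5e and the first Entpd1 start hold neither of these letters nor the forkhead (GTAAACA), RUNX (TGTGGT), AP-1 (TGANTCA) or ETS (GGAAGT) motif. Those 4 occur in 3.65%, 16.8%, 7.81% and 23.8% of all windows.

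Total counts in peaks were 673398 to 2184717 in KO libraries and 1025283 to 2081740 in WT libraries, and promoter peaks took 59.7 ± 0.863% of counts in KO and 60.3 ± 1.11% in WT (SD, n = 5). Over the whole table, 3.85% of 34910 tested peaks were called (edgeR's quasi-likelihood test, Benjamini-Hochberg adjusted p under 0.05), 2.94% higher and 0.911% lower in KO, and 2.19% of 12489 tested genes. Some libraries of a group agreed within Poisson noise: Sample_2268_KO with Sample_2270_KO, Sample_2271_KO with Sample_2272_KO, Sample_2273_WT with Sample_2276_WT and Sample_2277_WT, and Sample_2274_WT with Sample_2275_WT (chi-square per degree of freedom 0.957 to 0.993), while the other pairs of a group differed (1.04 to 1.38). They may be repeat libraries of 1 sample, which the labels do not say, and results that carry a call are therefore also given with each such set merged and counted once, which leaves 3 KO and 2 WT sets. The words repeat libraries below name these sets only, and whether they are repeats is not known. Markers of CD4 T cells summed to 1311 to 1381 CPM in KO (CPM, counts-per-million, of the TMM-scaled total of tested peaks) and 1265 to 1358 CPM in WT. Of 5 B cell markers 3 had no peak in the table used here (Ms4a1, Pax5 and Ebf1), and the other 2 summed to 30.0 to 37.4 CPM in KO and 34.5 to 41.5 CPM in WT. The 12 regulatory T cell markers, 8 of them the genes described here, summed to 1002 to 1205 CPM in KO and 957 to 1055 CPM in WT, with 2 called higher (Ctla4 and Ikzf2). Naive T cell markers summed to 2988 to 3191 CPM in KO and 2801 to 3012 CPM in WT, with 1 of 6 called higher, and markers of activated or memory T cells to 826 to 943 CPM in KO and 807 to 882 CPM in WT, with 0 called. Myeloid markers (50.0 to 81.9 CPM in KO, 61.5 to 78.9 CPM in WT), CD8 T and NK cell markers (310 to 354 CPM in KO, 324 to 342 CPM in WT) and erythroid markers (53.6 to 79.3 CPM in KO, 57.4 to 68.9 CPM in WT) overlapped between the groups, with 0 called. The lists differ in number of genes and length of peak, so these sums do not compare cell types. Per kb of peak, the mean over all 10 libraries was 92.1 CPM for CD4 T, 87.6 for naive and 70.5 for activated or memory markers. It was 59.3 for regulatory T, 57.4 for B, 39.8 for myeloid, 66.0 for CD8 T and NK and 63.1 for erythroid markers. Genes without a peak do not enter these values. The values cover 2 of 5 B, 4 of 6 myeloid, 6 of 7 CD8 T and NK and 2 of 3 erythroid markers. Those left out include Lyz2, Csf1r, Ncr1 and Gata1, and in the remaining lists every gene used had a peak. The values per kb therefore do not compare cell types either.

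The accessibility summed over all peaks of a gene did not pass the test for any of the 8 genes. None was called by edgeR, DESeq2 or limma-voom or reached an unadjusted p under 0.05 with any of these tools, where 2.19% of all tested genes were called by edgeR and 12.5% reached that unadjusted p. The fitted log2 fold change, KO over WT, was above 0 in 4 genes and below 0 in 4, with a median of 0.02 over the 8 genes and -0.01 over all tested genes. In none of the 8 genes did the KO and WT libraries separate, against 3.23% of all tested genes. With repeat libraries merged, 0 of the 8 were called as well.

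**Figure D1:**
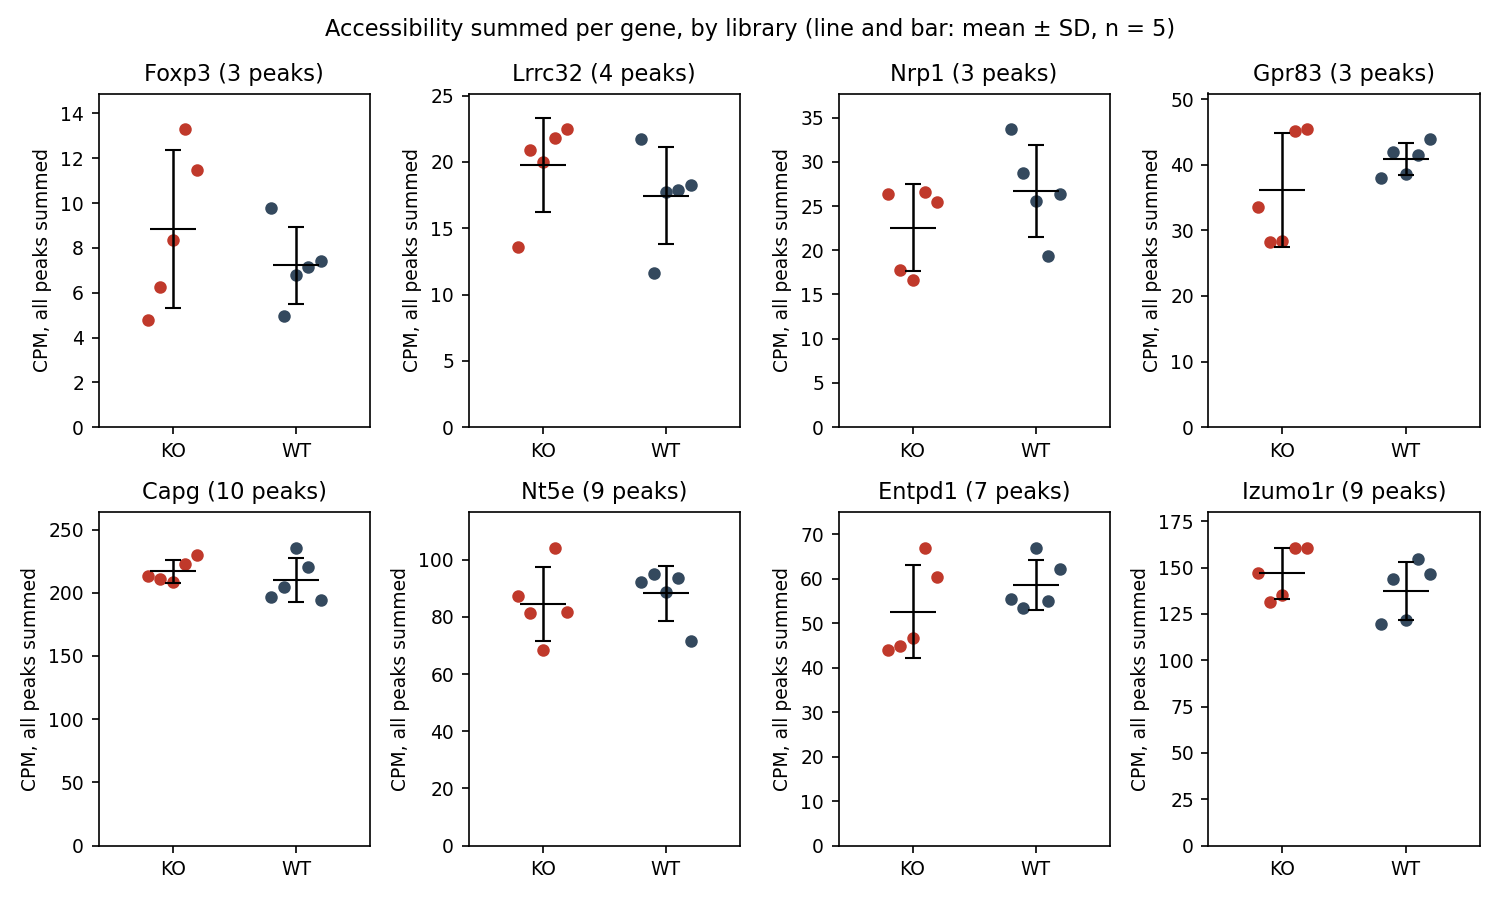
Accessibility of the 8 genes in CPM, summed over all peaks of a gene, with KO libraries left and WT libraries right in each panel; points are libraries, and the line and bar give mean ± SD (n = 5). The KO and WT points overlap in every panel, and the panels differ in scale, with 4.80 to 13.3 CPM in the Foxp3 panel and 195 to 236 CPM in the Capg panel.

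Foxp3 (gene ID 20371) lies on the plus strand of the X chromosome (mm10, 7579676 to 7595243) and had the lowest accessibility per kb of peak among the 8 genes. Its 3 peaks together held 6, 6, 5, 25 and 23 counts in the KO libraries and 9, 9, 13, 10 and 11 counts in the WT libraries. Scaled for depth, this is 4.80, 6.26, 8.34, 13.3 and 11.5 CPM in KO and 9.78, 4.97, 6.79, 7.15 and 7.43 CPM in WT. Sample_2271_KO and Sample_2272_KO, which agreed within Poisson noise, lay above all WT libraries, and the other 3 KO libraries lay within the WT range or below it. The log2 fold change was 0.48 ± 0.28 (SE, 95% interval -0.08 to 1.04, edgeR adjusted p = 0.498), so the interval spans 0.948-fold to 2.06-fold. Without Sample_2271_KO the log2 fold change was 0.25. In bulk libraries such as these, a different number of cells with an open locus and a different level per cell cannot be told apart.

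All 3 Foxp3 peaks fell short of the count filter for a test of their own, and each is short (60, 83 and 100 bp). The promoter peak, 335 bp upstream of the start (7579282 to 7579341), held 0, 1, 2, 12 and 5 counts in KO and 0, 1, 3, 1 and 1 in WT. It held 20 counts over all KO libraries, 12 of them in Sample_2271_KO, against 6 over all WT libraries. Scaled for depth, Sample_2270_KO, Sample_2271_KO and Sample_2272_KO (3.33, 6.38 and 2.50 CPM) lay above the highest WT library (1.57 CPM), and the other KO libraries lay within the WT range. The peak 7007 bp past the start, in intron 3 of 12 (7586683 to 7586765), held 3, 3, 0, 10 and 6 counts in KO and 5, 3, 2, 2 and 5 in WT. The peak 8007 bp past the start, in intron 5 of 12 (7587683 to 7587782), held 3, 2, 3, 3 and 12 counts in KO and 4, 5, 8, 7 and 5 in WT. In each of the 3 peaks a deep KO library, Sample_2271_KO or Sample_2272_KO, had the highest count. Scaled for depth, the groups overlapped in all 3 peaks. When the count filter was removed, the promoter peak had a log2 fold change of 1.73 ± 0.82 (SE, edgeR unadjusted p = 0.0261, adjusted p = 0.311), and the intronic peaks had 0.43 ± 0.58 and -0.19 ± 0.46 (adjusted p = 0.825 and 0.920).

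**Figure D2:**
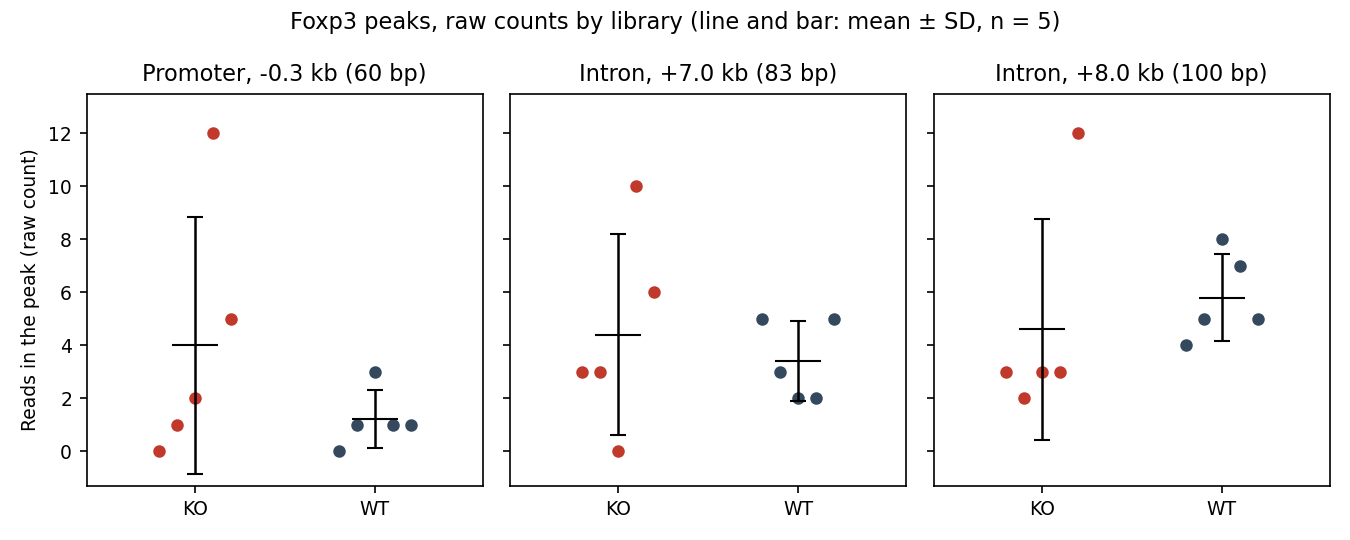
Raw counts in the 3 Foxp3 peaks, KO libraries left and WT libraries right; the title of each panel gives the class, the distance from the start and the width of the peak, and lines and bars give mean ± SD (n = 5). The highest points, 12, 10 and 12 counts, come from 1 KO library each.

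Because Foxp3 is X-linked and the labels give no sex, its counts were also set against all other X-linked peaks. Foxp3 had 2.86, 4.11, 5.06, 7.66 and 6.79 counts per 10000 other X-linked counts in KO and 6.20, 2.99, 4.18, 4.37 and 4.58 in WT. The means were 5.30 ± 1.95 in KO and 4.46 ± 1.15 in WT (SD, n = 5), a difference within the spread of the libraries (two-sided exact permutation p = 0.437). As CPM of autosomal counts the means were 8.23 ± 3.31 in KO and 6.73 ± 1.56 in WT (two-sided exact permutation p = 0.381). Reads on the Y chromosome were present in all 10 libraries.

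The neighbours of Foxp3 within 50 kb of its start were not called either. Of 10 peaks there that are annotated to Flicr, a non-coding RNA gene beside Foxp3, or to Ppp1r3f, Ccdc22 or Cacna1f, 6 were tested, and 0 were called by edgeR, DESeq2 or limma-voom, with 1 at an unadjusted p under 0.05 by each tool. That peak, annotated to Flicr and lying in an intron of Ppp1r3f about 13 kb upstream of Foxp3 (7566403 to 7566631), had 14.7 ± 3.08 CPM in KO libraries and 9.75 ± 3.61 CPM in WT libraries (SD, n = 5; log2 fold change 0.62 ± 0.22 SE, edgeR adjusted p = 0.117).

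Lrrc32, the GARP gene, lies on the plus strand of chromosome 7 (gene ID 434215, 98494222 to 98501831), and none of its 4 peaks is at its promoter. They lie 24806, 12965, 4478 and 4164 bp upstream, the farthest of them in an intron of Gucy2d, and none passed the filter on low counts. Their sum was 13.6, 20.9, 20, 21.8 and 22.5 CPM in KO and 21.7, 11.6, 17.8, 17.9 and 18.2 CPM in WT. The lowest KO library and the lowest WT library lay well under the rest of their groups, and the groups overlapped. The log2 fold change was 0.25 ± 0.18 (SE, edgeR adjusted p = 0.628).

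Nrp1 lies on the plus strand of chromosome 8 (gene ID 18186, 128359073 to 128505476) and had 26.4, 17.7, 16.7, 26.6 and 25.5 CPM over its 3 peaks in KO and 33.7, 28.7, 25.6, 19.3 and 26.4 CPM in WT. The log2 fold change of the sum was -0.13 ± 0.16 (SE, edgeR adjusted p = 0.815), and the groups overlapped. Its stronger promoter peak, 383 bp upstream (128358433 to 128358690), was the 1 tested peak of the gene. It held 14.4, 9.39, 11.7, 14.4 and 13.97 CPM in KO and 18.5, 14.4, 14.1, 6.43 and 15.5 CPM in WT (log2 fold change -0.03 ± 0.21 SE, adjusted p = 0.978). Sample_2276_WT was the lowest library in this peak and Sample_2273_WT the highest, so the WT libraries enclosed all KO libraries. The weaker promoter peak, 790 bp upstream (128358127 to 128358283), was too low to test and had 6.40, 5.22, 3.33, 5.85 and 8.48 CPM in KO and 7.61, 7.73, 5.75, 5.72 and 5.41 CPM in WT, with overlap. An exonic and an intronic peak inside Nrp1 are annotated to the microRNA gene Mir1903, and they had log2 fold changes of -0.15 ± 0.24 and -0.18 ± 0.20 (adjusted p = 0.860 and 0.788).

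Gpr83 and Izumo1r are neighbours on chromosome 9, Gpr83 on the plus strand (gene ID 14608, 14860210 to 14870789) and Izumo1r on the minus strand (gene ID 64931, 14885814 to 14903951). The 3 peaks of Gpr83 summed to 33.6, 28.2, 28.3, 45.2 and 45.4 CPM in KO and 38.0, 42.0, 38.7, 41.5 and 43.9 CPM in WT. The KO libraries lay on both sides of the narrow WT range, with the 2 deepest of them above it and the other 3 below it. Those above it, Sample_2271_KO and Sample_2272_KO, agreed within Poisson noise. The log2 fold change was -0.07 ± 0.13 (SE, edgeR adjusted p = 0.900).

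The promoter peak of Gpr83, which covers its start (14860011 to 14860313) and most of the window printed above, had 16.0, 12.5, 15.0, 22.9 and 25.0 CPM in KO and 17.4, 16.0, 18.8, 22.9 and 18.9 CPM in WT. The libraries overlapped, and the fitted log2 fold change was 0.09 ± 0.17 (SE, adjusted p = 0.887). The plain means, 18.3 ± 5.36 CPM in KO, against 18.8 ± 2.57 CPM in WT, run the other way, and the fit gives deep libraries more weight than a plain mean does. The peak in intron 3 of 3 (14867042 to 14867340) had 15.5 ± 3.64 CPM in KO libraries and 17.3 ± 2.66 CPM in WT libraries (adjusted p = 0.945). The distal peak 16494 bp past the start was too low to test, with 16 counts over all KO libraries and 36 over all WT libraries. Without a count filter its log2 fold change was -0.98 ± 0.48 (edgeR unadjusted p = 0.0355, adjusted p = 0.359).

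Izumo1r had 147, 131, 135, 161 and 161 CPM over 9 peaks in KO and 119.5, 144, 122, 154 and 147 CPM in WT. The groups overlapped, and its log2 fold change of 0.13 ± 0.07 (SE, 95% interval -0.02 to 0.28) had the smallest adjusted p of the 8 genes, 0.494 with edgeR. Its promoter peak, 135 bp upstream of the start (14904086 to 14904265), had 10.4, 16.7, 1.67, 16.0 and 16.5 CPM in KO and 12.0, 6.62, 9.92, 7.15 and 10.8 CPM in WT. In this peak 3 KO libraries lay above all WT libraries, while Sample_2270_KO, the shallowest library, held 1 count and lay below them all. The log2 fold change was 0.62 ± 0.24 (SE, edgeR unadjusted p = 0.0124, adjusted p = 0.172). The 5 other tested peaks of Izumo1r had log2 fold changes from -0.30 to 0.27, with adjusted p from 0.387 to 0.959. Among its 3 untested peaks, the one 8469 bp past the start, in intron 2 of 2, held 42 counts in KO and 25 in WT (log2 fold change without a count filter 0.87 ± 0.39, adjusted p = 0.295).

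The enzymes of the adenosine pathway, CD39 and CD73, showed no called difference in their genes. Entpd1 lies on the plus strand of chromosome 19 (gene ID 12495, 40612366 to 40741602), and its 7 peaks summed to 44.0, 44.9, 46.7, 67.0 and 60.4 CPM in KO and 55.4, 53.5, 66.9, 55.1 and 62.2 CPM in WT. Sample_2271_KO was the highest of all 10 libraries and Sample_2272_KO lay within the WT range, while the other 3 KO libraries lay below every WT library. The log2 fold change was -0.09 ± 0.11 (SE, edgeR adjusted p = 0.825). Its 2 tested peaks are in intron 1 of 9, 67353 and 95751 bp past the start, and had log2 fold changes of -0.21 ± 0.21 and -0.005 ± 0.15 (adjusted p = 0.768 and 0.995).

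None of the 7 peaks counts as a promoter peak of Entpd1, yet its first start is open. The Tctn3-annotated promoter peak that covers the printed Entpd1 window (40612000 to 40612540) had 70.7 ± 10.4 CPM in KO, against 61.9 ± 7.50 CPM in WT (SD, n = 5; log2 fold change 0.21 ± 0.10 SE, edgeR unadjusted p = 0.0386, adjusted p = 0.326). At the second Entpd1 start a 5' UTR peak held 17 counts over all KO libraries and 17 over all WT libraries. Of 4 tested peaks annotated to Tctn3 or Aldh18a1 within 50 kb, 0 were called by edgeR, DESeq2 or limma-voom, with 2, 0 and 2 at an unadjusted p under 0.05.

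Nt5e lies on the plus strand of chromosome 9 (gene ID 23959, 88327609 to 88372089), and its 9 peaks summed to 87.2, 81.4, 68.3, 104.2 and 81.8 CPM in KO and 92.4, 94.9, 88.8, 93.7 and 71.6 CPM in WT. The groups overlapped, with a log2 fold change of -0.01 ± 0.09 (SE, 95% interval -0.19 to 0.17, edgeR adjusted p = 0.987). The promoter peak over its start (88327312 to 88327832), which holds all of the printed window, had 18.4, 16.7, 11.7, 21.3 and 20.5 CPM in KO and 19.6, 14.9, 19.9, 22.2 and 11.5 CPM in WT. Its libraries overlapped as well (log2 fold change 0.12 ± 0.18 SE, adjusted p = 0.848).

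A second tested promoter peak of Nt5e, 1602 bp past the start (88329211 to 88329387), had 7.20, 4.17, 8.34, 7.98 and 8.48 CPM in KO and 1.09, 7.18, 6.79, 2.15 and 3.38 CPM in WT. Only 1 KO library lay within the WT range, and its log2 fold change was 0.67 ± 0.32 (SE, edgeR unadjusted p = 0.0383, adjusted p = 0.324). The third promoter peak, 1856 bp past the start (88329465 to 88329603), was too low to test and had 5.60, 5.22, 5.0, 7.44 and 7.98 CPM in KO and 6.52, 3.31, 6.27, 9.29 and 9.46 CPM in WT. Its KO libraries lay within the WT range, and its log2 fold change without a count filter was -0.04 ± 0.30 (SE, edgeR adjusted p = 0.979). The distal peak 85725 bp upstream and the peak 52506 bp past the start, which lies in an exon of Snx14, had log2 fold changes of -0.10 ± 0.17 and -0.24 ± 0.19 (adjusted p = 0.887 and 0.650).

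Capg, on the plus strand of chromosome 6 (gene ID 12332, 72544391 to 72562983), held the 1 called peak among the 48. Its sum over 10 peaks was 214, 211, 208, 223 and 230.0 CPM in KO and 197, 204, 236, 220.2 and 195 CPM in WT, and the groups overlapped (log2 fold change 0.05 ± 0.06 SE, 95% interval -0.08 to 0.18, edgeR adjusted p = 0.833). The called peak lies 175 bp past the start (72544566 to 72545042) and is annotated as promoter. This start is that of the deposited annotation, and the RefSeq window of Capg lies elsewhere (72549397 to 72549696), with an intronic Capg peak as its nearest, so promoter and other peaks are told apart by the deposited annotation alone. The called peak held 29.6, 26.1, 16.7, 27.1 and 32.9 CPM in KO and 42.4, 35.9, 51.2, 38.6 and 31.8 CPM in WT. All KO libraries but Sample_2272_KO lay below all WT libraries. Its log2 fold change was -0.51 ± 0.13 (SE, 95% interval -0.78 to -0.25, edgeR adjusted p = 0.00977). Of all tested promoter peaks 0.341% were called lower. With repeat libraries merged the adjusted p was 0.0158, and with limma-voom 0.0309. The call ended with DESeq2 (adjusted p = 0.139), without Sample_2275_WT (0.157), without the 3 shallowest libraries (0.114) and with every library thinned to the smallest total (0.0517). Thinning was drawn at random once, and its value lies so near the threshold that another draw could keep the call. The log2 fold change stayed between -0.67 and -0.38 under all alternatives.

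The Capg peaks outside the promoter did not share this direction. The smaller promoter peak over the start (72544321 to 72544511) had 9.60, 6.26, 6.67, 6.38 and 9.98 CPM in KO and 7.61, 8.28, 11.5, 12.2 and 12.2 CPM in WT. Its groups overlapped (log2 fold change -0.38 ± 0.25 SE, edgeR adjusted p = 0.557). Outside the promoter, all 7 tested peaks had a fitted log2 fold change above 0, and none was called, and 3 of the 7, those nearest 0, changed sign in at least 1 alternative. The distal peak 31378 bp upstream had 46.8 ± 4.01 CPM in KO, against 38.9 ± 7.64 CPM in WT (log2 fold change 0.26 ± 0.11 SE, unadjusted p = 0.0261, adjusted p = 0.268). The distal peak 10027 bp upstream had 14.4 ± 6.31 CPM in KO libraries and 8.44 ± 2.57 CPM in WT libraries (0.56 ± 0.25, unadjusted p = 0.0256, adjusted p = 0.265). The strongest intronic peak, 8195 bp past the start in intron 1 of 9, had 48.7 ± 4.03 CPM in KO, against 41.9 ± 5.22 CPM in WT (0.21 ± 0.11, adjusted p = 0.395). The other 4 tested peaks outside the promoter had log2 fold changes from 0.01 to 0.29. For the peak 8942 bp upstream the plain means run the other way, 9.59 CPM in KO, against 10.35 CPM in WT. The peak 5378 bp upstream had nearly equal means, 37.95 CPM in KO and 37.94 CPM in WT.

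Promoter and other peaks of Capg were therefore summed apart, a split chosen after the peak values were seen. The split rests on the deposited start alone. The intronic peak nearest the RefSeq window, 1079 bp from it, counts among the other peaks, and a split by the RefSeq start was not tested. The 2 promoter peaks together had 39.2, 32.3, 23.3, 33.5 and 42.9 CPM in KO and 50.0, 44.2, 62.7, 50.8 and 43.9 CPM in WT, and each KO library lay under the lowest WT library. The 8 other peaks had 174, 178, 185, 189 and 187 CPM in KO and 147, 160.1, 173, 169 and 151 CPM in WT, and each KO library lay over the highest WT library. The promoter took 18.4%, 15.4%, 11.2%, 15.0% and 18.7% of all Capg counts in KO and 25.4%, 21.6%, 26.6%, 23.1% and 22.6% in WT, again without overlap. The mean share was 15.7 ± 3.02% in KO and 23.9 ± 2.08% in WT (SD, n = 5). The share is made of the other 2 measures. Permutation tests were run on all 3 after the split was seen, with a two-sided exact p of 0.00794 for each and of 0.2 for each with repeat libraries merged, the smallest values possible, and they are no independent support because the values tested also chose the split. The same holds for edgeR, whose fit on promoter peaks alone gave Capg a log2 fold change of -0.48 (adjusted p = 0.0301) and whose fit on peaks outside promoters gave 0.17 (adjusted p = 0.0886). With repeat libraries merged the share was 16.1%, 15.4% and 16.9% in the 3 KO sets and 23.4% and 24.4% in the 2 WT sets, without overlap.

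**Figure D3:**
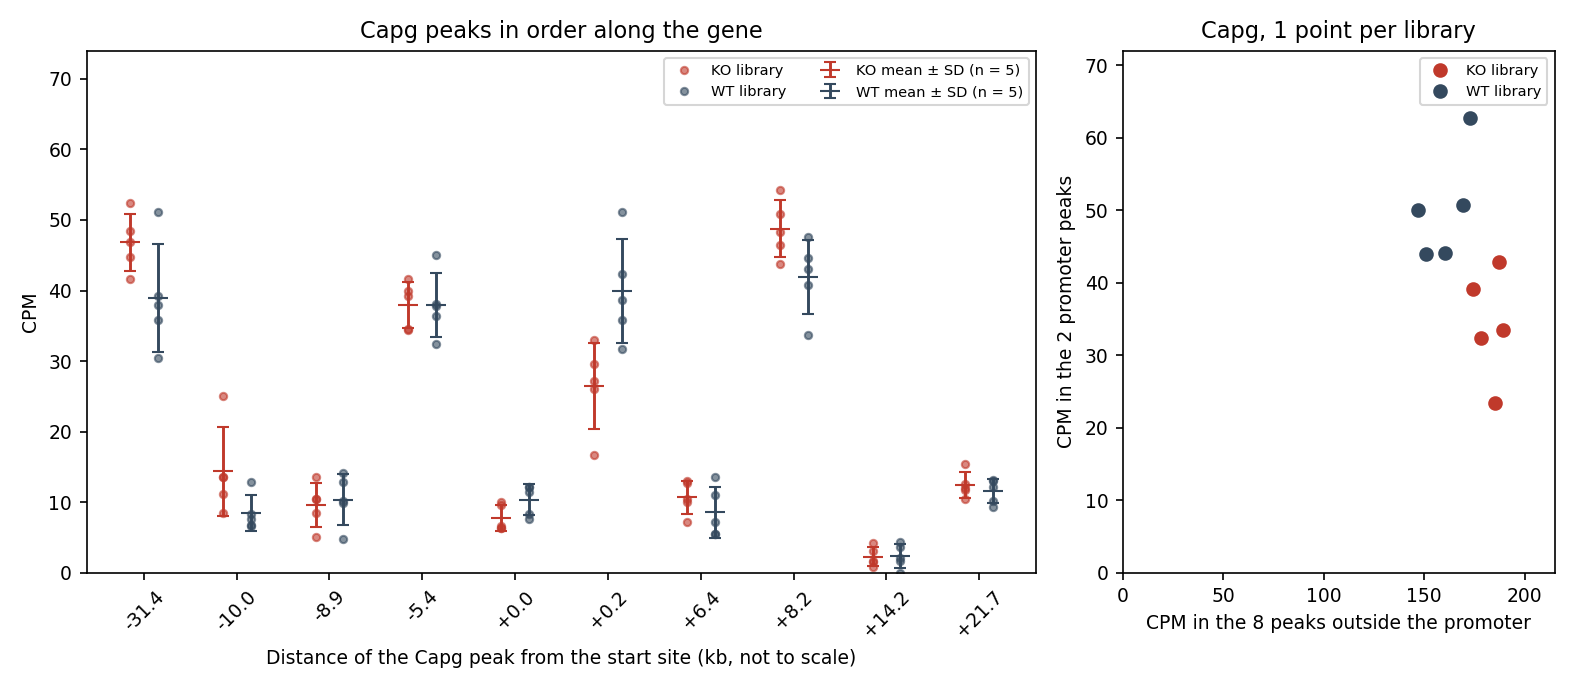
Left, CPM of each Capg peak in order of distance from the start site (kb, not to scale), with KO left of WT at each peak, points for libraries and mean ± SD (n = 5); right, CPM in the 2 promoter peaks against CPM in the 8 other peaks, 1 point per library. KO libraries lie lower and further right than WT libraries in the right panel, with 23.3 to 42.9 CPM against 43.9 to 62.7 CPM at the promoter and 174 to 189 CPM against 147 to 173 CPM elsewhere.

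Over the 24 tested peaks of the 8 genes together, 1 was called lower and 0 higher in KO with edgeR, where 0.911% and 2.94% of all tested peaks were. DESeq2 called 0 and limma-voom called 1, also lower. At an unadjusted p under 0.05 edgeR had 4 higher (2 of Capg and 1 each of Nt5e and Izumo1r) and 1 lower, limma-voom 4 and 1, and DESeq2 1 and 1, and 13.6% of all tested peaks reached that p with edgeR. The fitted log2 fold change was above 0 in 14 of the 24 and below 0 in 10, with a median of 0.03 for these peaks and -0.01 for all tested peaks. The libraries of KO and WT overlapped in all 24, against 3.96% of all tested peaks without overlap.

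**Figure D4:**
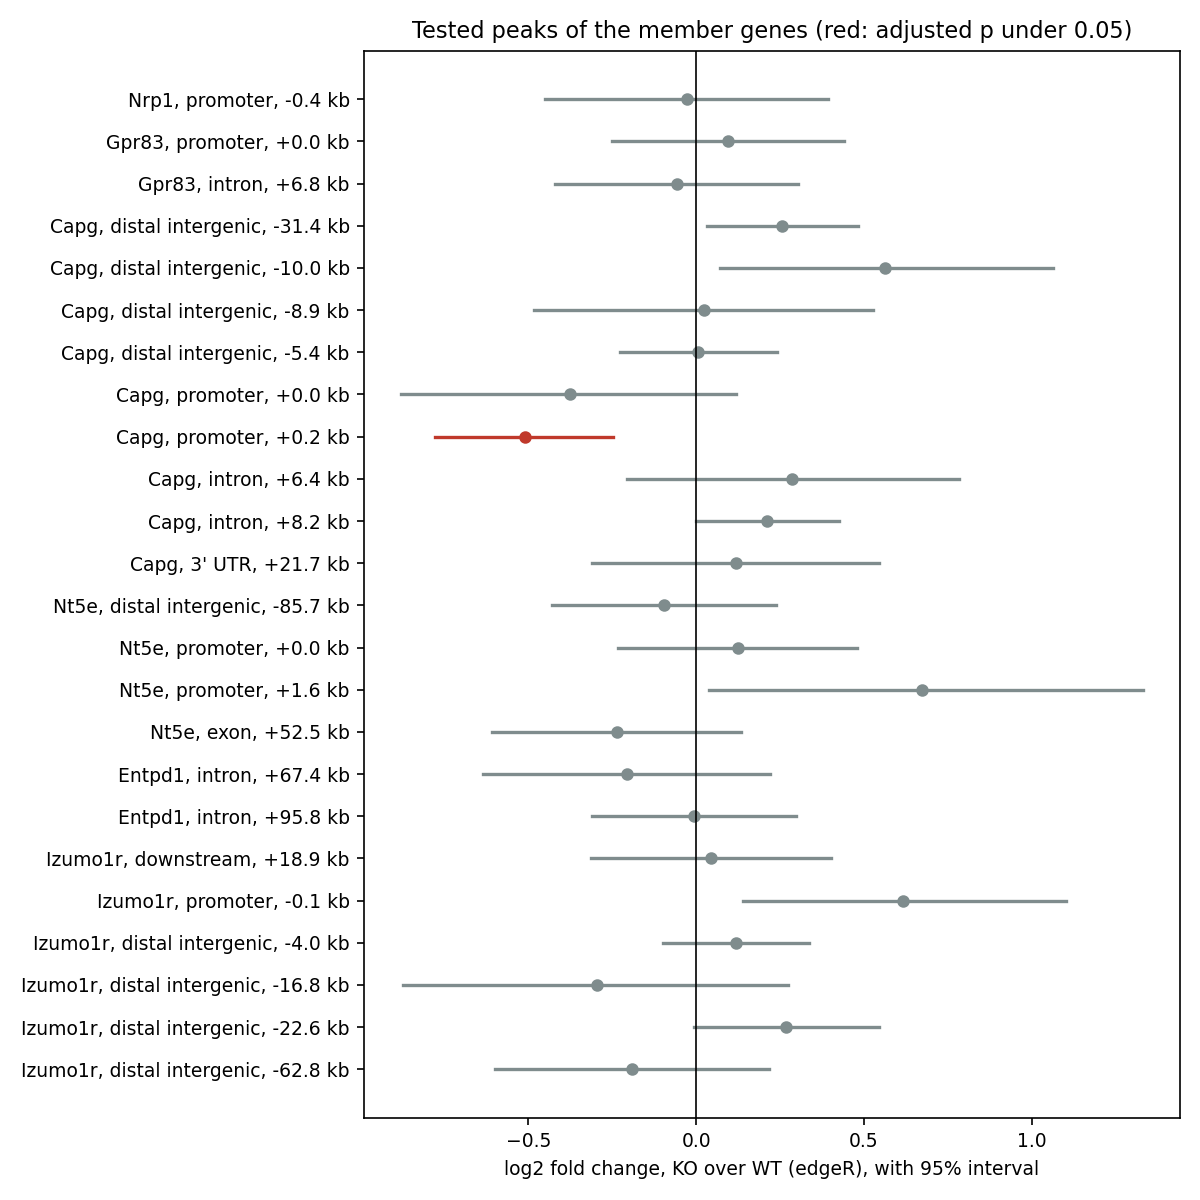
Fitted log2 fold change (KO over WT) of the 24 tested peaks with its 95% interval, listed by gene, class and distance from the start; red marks an adjusted p under 0.05. The Capg peak at +0.2 kb is the red one, at -0.51. The 5 intervals that lie above 0, that of the Capg peak at +8.2 kb only just, belong to peaks that did not pass the adjustment. The intervals are approximate, and the Capg peak at +8.2 kb had an edgeR unadjusted p of 0.0587, above 0.05.

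The 24 untested peaks averaged 1.05 to 6.37 CPM in KO and 0.702 to 7.01 CPM in WT, and no library held more than 18 counts in any of them. They were also shorter, with a median width of 99.5 bp, against 300 bp for the tested peaks and 164 bp for all peaks. Where the peaks lie differed from the table as a whole: 10 of the 48 (20.8%) are promoter peaks, against 36.6% of all annotated peaks, while 18 (37.5%) are intronic and 15 (31.2%) distal intergenic, against 30.2% and 26.2%. These shares are a description and were not tested.

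Levels of different genes were set side by side per length of peak, a rough measure that depends on which stretches were called as peaks. All peaks of Foxp3 and Lrrc32, last in this order, fell short of the count filter. Per kb of peak, Capg stood highest with 73.1 ± 3.06 CPM in KO libraries and 70.8 ± 5.85 CPM in WT libraries, followed in the mean over all 10 libraries by Izumo1r, Gpr83, Entpd1, Nrp1, Nt5e and Lrrc32. In the KO mean alone Nrp1, with 41.1 CPM per kb, stood below Nt5e (42.9) and Lrrc32 (41.7). Foxp3 stood lowest with 36.4 ± 14.6 CPM per kb in KO and 29.7 ± 7.08 CPM per kb in WT (SD, n = 5). The library ranges of every pair of neighbours in this order overlapped. Capg lay above Izumo1r in 8 of 10 libraries, Izumo1r above Gpr83 in 10, Gpr83 above Entpd1 in 9, Entpd1 above Nrp1 in 7, Nrp1 above Nt5e in 6, Nt5e above Lrrc32 in 6 and Lrrc32 above Foxp3 in 9. Among all tested genes the CPM per kb of Foxp3 was above that of 1.99% of genes and the CPM per kb of Capg above that of 49.1%.

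The patterns across libraries most like that of Foxp3 belonged to Plcb2, Tnfsf11 and Trim36 (Pearson r of log2 CPM 0.92, 0.89 and 0.88 over 10 libraries), and 22 of 12187 genes had an r over 0.8. Those most like Izumo1r belonged to Pyurf, Cxcl10 and Adamts17 (0.89, 0.89 and 0.87), with 18 genes over 0.8. These values are a description of libraries that share depth and scaling, and Foxp3 rests on few counts.

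Other genes of the same pathways, taken from lists by name, showed where called differences lay. These lists were chosen with earlier results of these data known, so their counts against all tested genes are a description and not a test. Of 19 tested members of a list of 24 other regulatory T cell genes, 3 rose in KO and 0 fell, against 1.65% and 0.536% of all tested genes: Ctla4, Il10ra and Ikzf2. The median log2 fold change of the list was 0.05, against -0.01 for all tested genes. Ctla4, which encodes an inhibitory receptor, had 209 ± 10.8 CPM in KO, against 151 ± 6.63 CPM in WT (SD, n = 5; log2 fold change 0.47 ± 0.06 SE, edgeR adjusted p = 5.93e-07), and was called in 22 of 23 alternatives, the exception being promoter peaks alone (0.938). Il10ra, a chain of the interleukin-10 receptor, had 78.9 ± 4.69 CPM in KO libraries and 58.8 ± 5.64 CPM in WT libraries (0.43 ± 0.09, adjusted p = 0.00182), a call that ended in promoter peaks alone (0.157) and after thinning (0.188). Ikzf2, which encodes the transcription factor Helios, was called in 14 of 23 alternatives and not with DESeq2 (adjusted p = 0.188) or with repeat libraries merged (0.0649). The next genes by adjusted p, Cd5 and Icos, had 0.174 and 0.475.

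Among 32 regulators and partners of FOXP3, all tested, 2 rose and 0 fell, against 1.65% and 0.536% of all tested genes, with a list median log2 fold change of 0.0005. They are Gata3, a T helper 2 factor that also acts in regulatory T cells, with 379 ± 30.0 CPM in KO, against 318 ± 18.4 CPM in WT (edgeR adjusted p = 0.00696), and Satb1 itself, with 428 ± 12.0 CPM in KO libraries and 373 ± 15.6 CPM in WT libraries (adjusted p = 0.0245). Gata3 was called in 20 of 23 alternatives and Satb1 in 14 of 23. Neither passed with repeat libraries merged (adjusted p = 0.206 for Gata3 and 0.292 for Satb1), in promoter peaks alone (0.898 and 0.352) or after thinning (0.0604 and 0.438). The call of Satb1 also ended with DESeq2 (0.0903), without the 3 shallowest libraries (0.114) and when Sample_2268_KO, Sample_2271_KO, Sample_2273_WT or Sample_2276_WT was left out (0.0580 to 0.0991). The floxed part of Satb1 was not given in the sources used here, so accessibility of its peaks is no check of the deletion. Tcf7, Ezh2, Eed and Runx3 came next, with adjusted p of 0.139, 0.234, 0.262 and 0.293.

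In the list named for the adenosine pathway 1 of 17 tested members rose and 0 fell, against the same 1.65% and 0.536%, with a list median log2 fold change of 0.06. The member is P2ry10, which encodes a receptor for lysophosphatidylserine and not for adenosine, with 45.7 ± 3.81 CPM in KO, against 28.5 ± 3.48 CPM in WT (SD, n = 5; log2 fold change 0.66 ± 0.12 SE, edgeR adjusted p = 0.000317). Its KO libraries all lay above its WT libraries, and its call ended in 1 of 22 alternatives, thinning (0.0878). Adk, adenosine kinase, followed with 159 ± 15.0 CPM in KO libraries and 133 ± 5.03 CPM in WT libraries (adjusted p = 0.0762), and the ATP receptor genes P2rx4 and P2rx7 had adjusted p of 0.198 and 0.395. Of 11 tested partners of GARP in TGF-beta activation and 10 tested neuropilin partners, 0 were called by edgeR, DESeq2 or limma-voom, with 1 in each list at an unadjusted p under 0.05 by each tool, which 12.5% of all tested genes reached with edgeR. These were Furin, a protease that processes TGF-beta (123 ± 10.1 CPM in KO, against 106 ± 8.26 CPM in WT, edgeR adjusted p = 0.104), and the semaphorin gene Sema3f (117 ± 8.76 CPM in KO libraries and 137 ± 8.01 CPM in WT libraries, adjusted p = 0.0971). The list medians of the log2 fold change were 0.04 and -0.07.

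**Figure D5:**
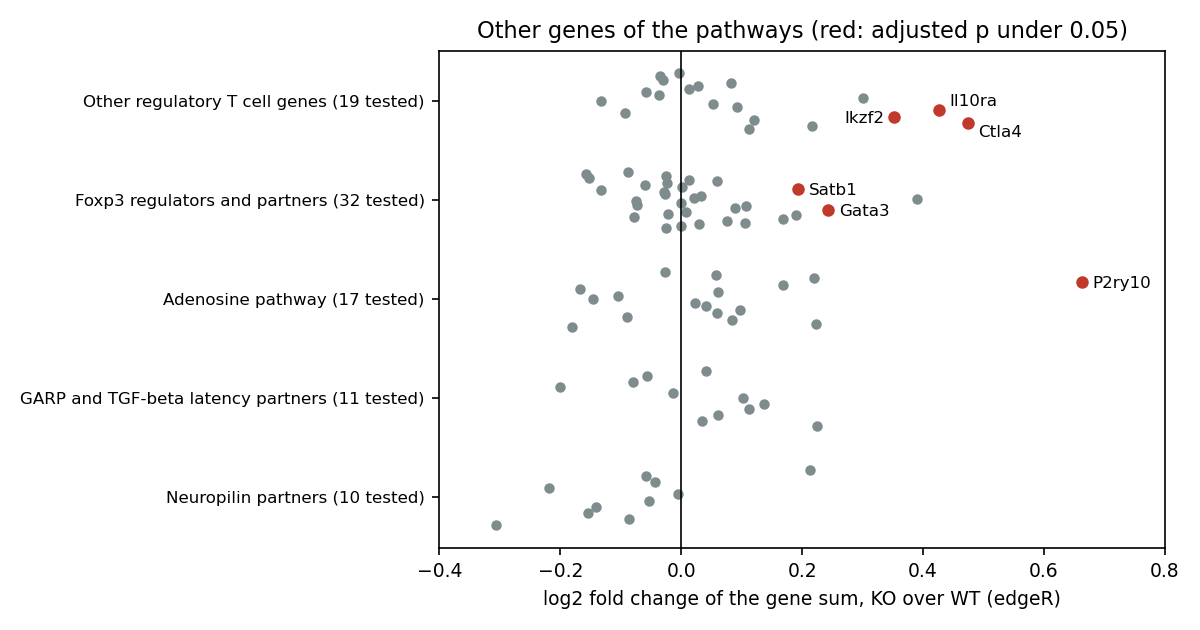
Fitted log2 fold change of the gene sum (KO over WT) for each tested gene of the 5 pathway lists, 1 point per gene; red points with names had an adjusted p under 0.05. All 6 named genes lie to the right of 0, P2ry10 farthest at 0.66, and the GARP and neuropilin lists hold no red point.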

How the data were processed

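ATAC-seq libraries of 5 KO and 5 WT samples were analysed from a deposited table in which the authors give whole-number counts of reads per peak, not normalized, for 1 common peak set. A second deposited table gives each peak's position (mm10), class, nearest gene and distance to its start. Per the submitters' processing notes, the tools were MACS2 2.1.2, Bowtie2 2.3.5, SAMtools 1.9, Trimmomatic 0.36, Picard, bcl2fastq 2.20 and deepTools 3.3.0 and 3.5.2, with DESeq2 1.22.2 and ChIPseeker 1.18.0 in R 3.5.3. A shift of reads to the cut site, the handling of duplicates and any pooling for peak calling were not given in the sources used here. Shifting moves peak borders by a few bases, which matters most for short peaks such as those of Foxp3, and removal of duplicates caps dense peaks in deep libraries.

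The whole table of peaks, and counts summed over all peaks of a symbol, were fitted in R 4.3.3 by the quasi-likelihood test of edgeR 4.0.16 (filterByExpr, TMM scaling, glmQLFit and glmQLFTest, no covariate), with Benjamini-Hochberg adjustment over all tested peaks or genes and a threshold of 0.05. Of the counts, 1.085% lay in 10 mitochondrial peaks, which have no annotation, and 7971 peaks without a symbol stayed out of gene sums. Standard errors come from the F statistic and the fold change without a prior count, so they are approximate. Foxp3 shares, and sums and shares of Capg peaks chosen after their values were seen, were tested with two-sided exact permutation over all assignments of 5 libraries to KO (SciPy 1.17.1). Alternatives were DESeq2 1.42.0, limma-voom (limma 3.58.1), other scalings, filters, depths, libraries left out and repeat libraries merged. Thinning to the smallest total was drawn at random once and not repeated. Promoter sequences are RefSeq's. Lists, motifs and the rule for named genes were set by name: all 8 genes, their called, promoter and Foxp3 peaks by library, list genes past the threshold and up to 4 more per list by adjusted p. The genes and lists were chosen with earlier results of these data known. List genes without a peak were not analysed here, and 2 list genes are not reported here and were left out of their lists.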

Additional observations from a re-analysis of the deposited data

Results flagged for a closer look

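Among 74 groups of 5 libraries (gene sums, tested peaks and Foxp3 peaks of the 8 genes, and the Foxp3 and Capg shares) 3 held a library far from the other 4, by Dixon's test at a critical value of 0.71, where chance gives about 1 in 20 groups. For Lrrc32, Sample_2268_KO had the lowest gene sum of the KO group, 13.6 CPM, with the gap to the next library making up 0.723 of the range of the group. For Nt5e, Sample_2277_WT had the lowest gene sum of the WT group, 71.6 CPM, with a gap of 0.737 of the range. In the Capg peak 10027 bp upstream, Sample_2276_WT had the highest value of the WT group, 12.9 CPM, with a gap of 0.722 of the range. Each of these libraries stood apart in 1 item, and none of the items was called.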

How the results depend on the processing

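The call of the Capg promoter peak decided how many peaks of the 8 genes were called lower. That number was 0 instead of 1 with DESeq2, after thinning and without the 3 shallowest libraries, and 0 to 1 when each library was left out in turn, the 0 coming from Sample_2275_WT. The number of genes called lower was 1 instead of 0 with promoter peaks only, where the log2 fold change of Capg was -0.48 in place of 0.05. The called Capg peak kept its direction in 20 of 20 alternatives and lost its call in 4. The Capg promoter share, 0.659 of the WT share, was 0.628 to 0.706 of it when each library was left out and 0.675 when merged, where its exact permutation p was 0.2, the smallest possible, against 0.00794 over all libraries. The split behind this share was chosen after the peak values were seen, so these p-values and ranges are no independent support. Among 613 values of uncalled items the sign changed in 52, in 14 of 31 items. The Foxp3 share of X-linked counts, 1.19 times WT, was 1.05 to 1.32 times WT when each library was left out and 1.17 times when merged.

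Among all tested peaks 1345 were called, against 587 with DESeq2 and 271 after thinning, and 273 genes, against 109 with DESeq2, 89 after thinning, 156 with libraries merged, 183 without the 3 lowest libraries, 70 with promoter peaks only and 449 with peaks outside promoters only. No paired analysis was possible because the library numbers run on and pair no KO with a WT library. Depth limits these results: 24 of the 48 peaks were too low to test, the Foxp3 interval spans 0.948-fold to 2.06-fold, and thinning left 12 peaks to test.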
